A study of Mus musculus with 2 samples.

Results

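The 34 genes described here encode the enzymes of glycolysis from hexokinase to lactate dehydrogenase, the bifunctional enzymes that make and break fructose-2,6-bisphosphate, the regulatory protein Gckr and the enzymes of the pentose phosphate pathway. They were taken by gene symbol as members of these pathways, and all 34 were found among the 55536 genes of the GENCODE M21 annotation on the mouse mm10 assembly. One symbol, Aldoa, names 2 annotated entries, and the entry that spans chr7:126795234-126800751 on the minus strand was used, except that the shares of the aldolase step add both. The other entry, ENSMUSG00000114515.2, held 0.83 TPM in replicate 1 and 1.70 in replicate 2. TPM is the share of a library's transcripts that a gene holds, corrected for transcript length, so genes can be set beside each other in it.

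The measurements came from polyA RNA of liver from embryonic day 12.5 (E12.5) mice of the B6NCrl strain, healthy and of both sexes. There was a single group of 2 biological replicates, with no treatment and no second condition. Replicate 1 was a pool of livers from 120 embryos and replicate 2 a pool from 88, so each value is an average over many animals. Each library started from 10 ng of RNA with ERCC spike-in transcripts, copied with the SMARTer Ultra Low kit and cut by Nextera tagmentation.

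The fetal liver at this stage is both an early hepatic organ and the main site of red cell formation, and the isozymes of glycolysis differ between those cell types. Glycolysis splits glucose to pyruvate, which lactate dehydrogenase reduces to lactate, and mature red cells, which lack mitochondria, depend on it for ATP. The pentose phosphate pathway branches from glucose-6-phosphate, giving NADPH in its oxidative arm and ribose phosphate for nucleotides in its non-oxidative arm. At several steps mammals carry more than 1 gene, and the choice of gene differs among liver, muscle, brain and red cells.

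The libraries held 37190042 expected counts on annotated genes in replicate 1 and 34291772 in replicate 2, and spike-ins took 4.99% and 5.40% of all TPM. All 9 hepatoblast markers and all 8 red cell markers reached 1 TPM. Hepatoblast markers summed to 13839 and 13475 TPM and red cell markers to 3009 and 3099 TPM, in replicates 1 and 2. Markers of granulocytes (533 and 611 TPM), megakaryocytes (981 and 863 TPM), mesenchyme (352 and 374 TPM), macrophages (135 and 130 TPM) and endothelium (59.5 and 54.7 TPM) were also present. In such bulk tissue, fewer cells of a type and less RNA per cell cannot be told apart.

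The pathway was strongly represented. Of the 34 genes, 33 reached 1 TPM as the mean of both libraries, 22 reached 10 TPM and 15 reached 100 TPM. These are 97.1%, 64.7% and 44.1% of the 34, against 54.3%, 32.1% and 5.38% of all 22028 protein-coding genes. The median over the 34 genes was 62.8 ± 0.675 TPM (SD, n = 2), beside 1.81 ± 0.0177 TPM over protein-coding genes. Together they took 0.812% of the TPM of all genes in replicate 1 and 0.768% in replicate 2. Ldha, Gapdh and Eno1 alone made up 51.0% ± 0.186 of that total (SD, n = 2).

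**Figure D1:**
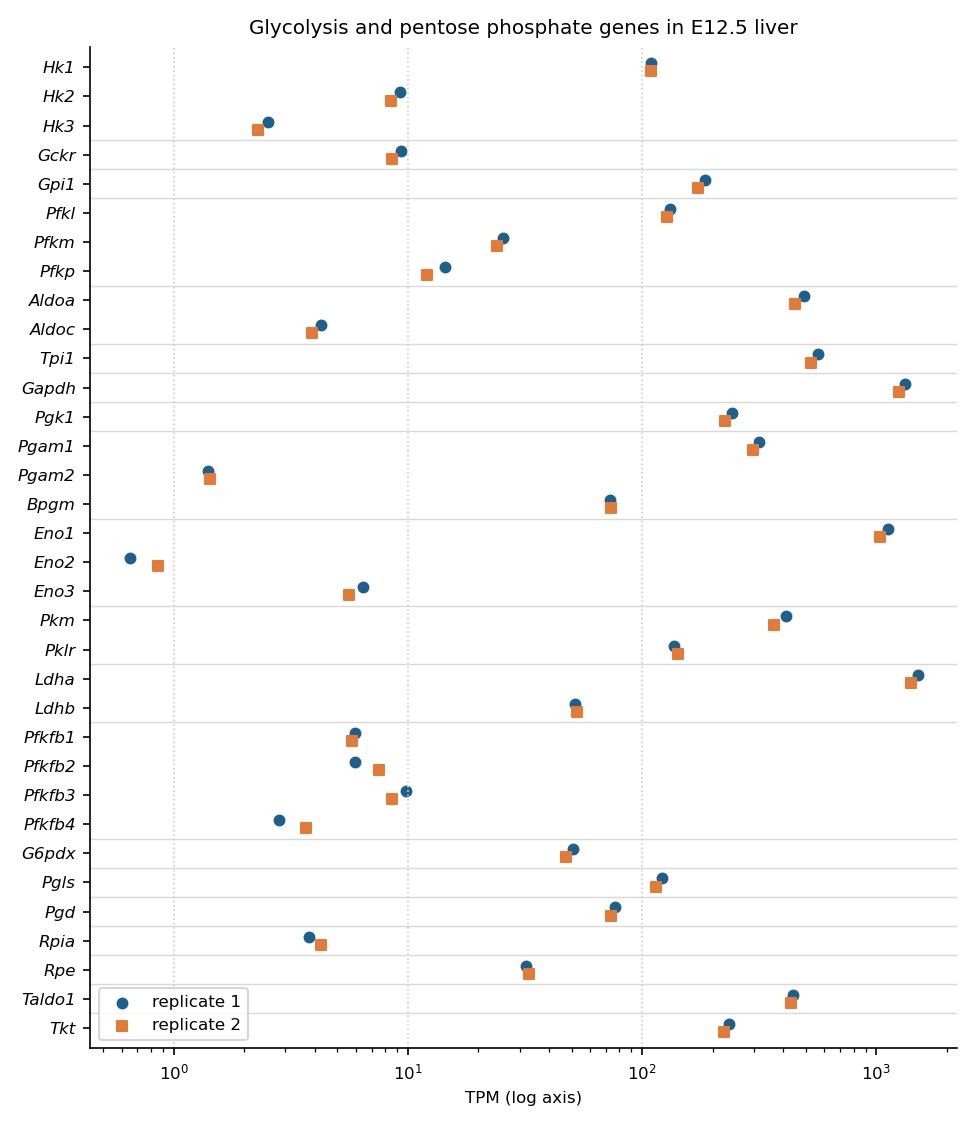
TPM of the 34 genes (log axis) in replicate 1 (circles) and replicate 2 (squares), in pathway order, with grey lines between steps and dotted lines at 1, 10 and 100 TPM. Levels span from under 1 TPM for Eno2 to 1501 TPM for Ldha in replicate 1, and each gene's pair of points lies close together on that scale.

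Pyruvate kinase, the last step before pyruvate, had transcripts of both genes and, within each gene, of both known forms. Pkm (ENSMUSG00000032294.17, chr9:59656368-59679375, plus strand), the gene of proliferating and most other tissues, had 409.9 TPM in replicate 1 and 367 in replicate 2. Pklr (ENSMUSG00000041237.12, chr3:89136142-89146784, plus strand), the gene of liver and red cells, had 136 TPM in replicate 1 and 143 in replicate 2. Pkm thus exceeded Pklr in both libraries, by 2.79 ± 0.312-fold (SD, n = 2), and made up 73.5% ± 2.18 of the summed TPM of the step.

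Pklr has 2 promoters. The upstream one gives the red cell form, with its own first exon, and the downstream one gives the liver form. The sequence before each start is shown because the deposited transcript levels separate the starts. Both are on the plus strand of GRCm38.p6, from RefSeq, and end at the base before the first M21 transcript of that start. They cover chr3:89135892-89136141 and chr3:89136373-89136571, and capitals mark GATAA, the core recognised by the GATA factors of red cell precursors.
Pklr upstream start: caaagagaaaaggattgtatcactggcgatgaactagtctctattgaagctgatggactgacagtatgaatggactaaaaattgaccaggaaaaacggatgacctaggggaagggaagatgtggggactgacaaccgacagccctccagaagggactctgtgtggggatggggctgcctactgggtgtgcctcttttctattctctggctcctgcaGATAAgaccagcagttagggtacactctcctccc
Pklr downstream start: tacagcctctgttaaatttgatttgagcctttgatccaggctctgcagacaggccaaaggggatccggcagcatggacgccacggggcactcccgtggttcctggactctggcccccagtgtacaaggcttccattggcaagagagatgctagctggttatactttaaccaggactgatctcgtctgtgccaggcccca
The full RefSeq windows, from 250 bases before to 50 after each start, were searched, of which the letters above are the part before the first M21 transcript. GATAA occurs 1 time in the upstream window, 34 bases before the start, and on neither strand of the downstream window. Over all 32851 RefSeq promoter windows of this length, 25.4% hold GATAA on either strand, so its presence alone is common. Other motifs were searched on both strands as exact strings only. CCNCNCCC (a KLF1-type motif, in 49.5% of all windows) was in neither Pklr window. Nor were the exact strings GTTAAT (an HNF1-type core, in 7.10%) and ACGTG (the core of the hypoxia response element, in 19.6%). CACGTG, a perfect E-box that contains ACGTG, was likewise in neither, and was in 7.15% of all windows. Sites that vary from these strings would be missed, so the lack of a match does not show that a binding site is absent.

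Transcripts from the upstream Pklr start, Pklr-201 and Pklr-205, summed to 95.8 TPM in replicate 1 and 103 in replicate 2. Those from the downstream start, Pklr-202, Pklr-203 and Pklr-204, summed to 40.5 TPM in replicate 1 and 39.9 in replicate 2. The upstream, red cell start therefore held 70.3% of Pklr TPM in replicate 1 and 72.1% in replicate 2. Pklr-205 is a short non-coding model of 345 bases that shares the upstream start. With the full-length coding pair alone, Pklr-201 had 74.0 and 80.5 TPM and Pklr-202 37.4 and 37.0 TPM in replicates 1 and 2, and the upstream share was 67.5% ± 1.501 (SD, n = 2). These models share all but their first exons and an end, so their separation rests on the reads over those bases. The posterior SD that the authors deposited for the expected count of Pklr-201 was 244 reads of 6493 in replicate 1 and 276 of 6541 in replicate 2.

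Pkm carries a pair of mutually exclusive exons. The upstream exon gives PKM1, the form of adult muscle and brain, and the downstream exon gives PKM2, the allosterically regulated form of embryonic and proliferating cells. The exons are shown because the levels below turn on which of them a transcript holds. They lie at chr9:59675029-59675195 and chr9:59675568-59675734 of GRCm38 on the plus strand, coding exons of 167 bases each, 372 bases apart. The upstream one is exon 9 of Pkm-202 and the downstream one exon 9 of Pkm-201. Pkm-203, a retained-intron model with 0 and 0.26 TPM in replicates 1 and 2, holds the upstream exon within a longer exon of 454 bases. Sequences are from the GENCODE M21 transcripts, and capitals mark the 64 positions at which the exons differ when set base against base. The other 103 positions, 61.7%, are identical.
Pkm upstream exon: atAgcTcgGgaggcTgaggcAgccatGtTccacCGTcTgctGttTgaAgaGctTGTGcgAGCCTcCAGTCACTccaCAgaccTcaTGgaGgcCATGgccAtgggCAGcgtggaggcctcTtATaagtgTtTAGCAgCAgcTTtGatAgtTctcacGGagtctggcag
Pkm downstream exon: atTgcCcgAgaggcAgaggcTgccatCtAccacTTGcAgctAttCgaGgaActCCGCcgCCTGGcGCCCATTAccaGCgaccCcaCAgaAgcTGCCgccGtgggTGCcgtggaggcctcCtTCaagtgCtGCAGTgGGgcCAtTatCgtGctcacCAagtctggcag
Pkm-201, the transcript with the downstream exon, had 389 TPM in replicate 1 and 348 in replicate 2. Transcripts with the upstream exon had 16.0 TPM in replicate 1 and 14.8 in replicate 2. The downstream, PKM2-type exon thus held 96.0% ± 0.0844 of the TPM that carried either exon (SD, n = 2). A further 5.31 TPM in replicate 1 and 4.67 in replicate 2 sat on 8 models that could be put in neither class.

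**Figure D2:**
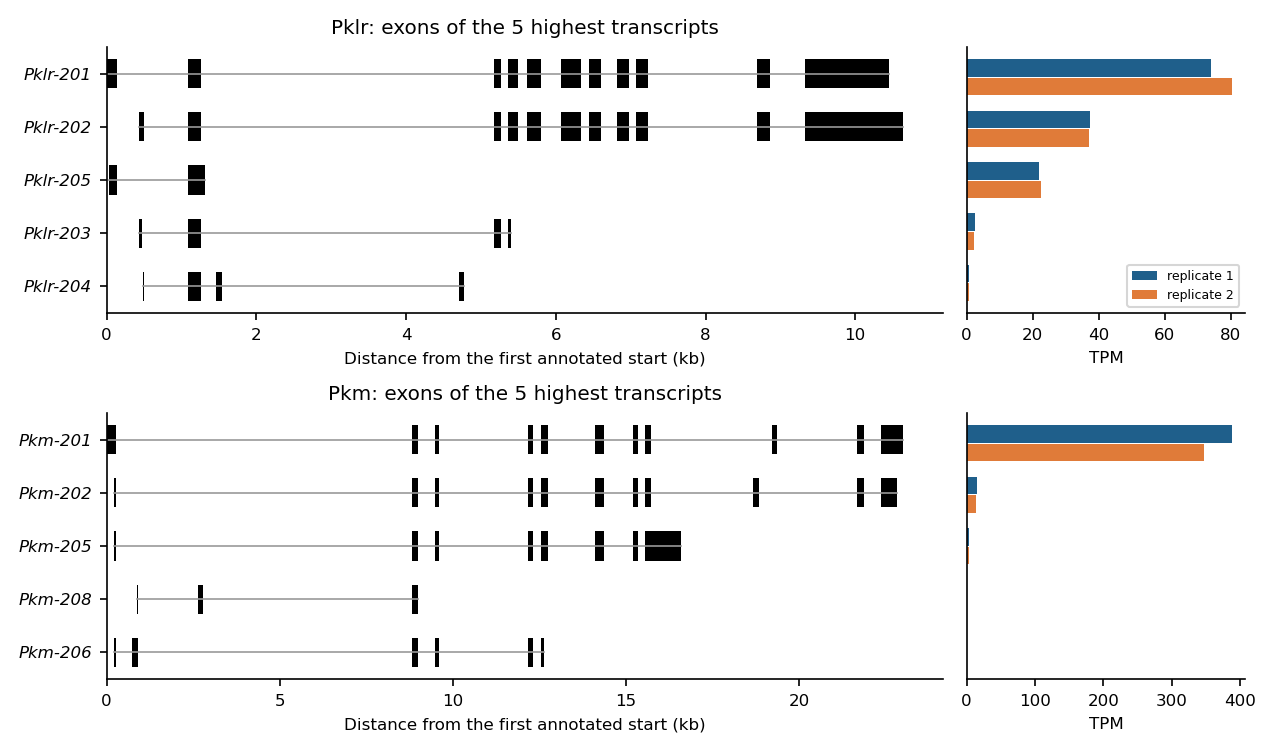
Exons (black boxes) of the 5 highest transcripts of Pklr (top) and Pkm (bottom) against distance from the first annotated start in kb, with TPM of each transcript in replicate 1 (blue) and replicate 2 (orange) at the right. Pklr-201 from the upstream start stands above Pklr-202 in both libraries, and nearly all Pkm TPM is on Pkm-201.

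At the entry to the pathway, hexokinase transcripts were mostly of Hk1, the form of red cells and brain. Hk1 (chr10:62268855-62379908, minus strand) had 109 TPM in replicate 1 and 109.6 in replicate 2. Hk2, the insulin-responsive muscle and fat form, had 9.30 TPM in replicate 1 and 8.46 in replicate 2. Hk3, a form of myeloid cells, had 2.54 TPM in replicate 1 and 2.29 in replicate 2. Hk1 held 86.2% ± 0.222 of the summed TPM of Hk1, Hk2, Hk3 and Hkdc1 and exceeded Hk2 by 12.3 ± 0.872-fold (SD, n = 2). On protein-coding transcripts alone that fold was 22.7 ± 0.911, with Hk2 at 4.90 and 4.63 TPM in replicates 1 and 2.

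Hkdc1, a further hexokinase-like gene that was not among the 34, had 5.82 TPM in replicate 1 and 6.54 in replicate 2. Gckr, a regulatory protein of glucose phosphorylation in the liver, was at 9.37 TPM in replicate 1 and 8.58 in replicate 2, close to the level of Hk2.

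Hk1 starts at several first exons, and nearly all of the deposited TPM was on 4 of them. Hk1-202 held 44.7% ± 0.843 of Hk1 TPM, Hk1-201 24.0% ± 0.305, Hk1-212 18.2% ± 0.354, and a further start, used by Hk1-205 and 2 other models, 12.5% ± 1.15 (SD, n = 2). The start of Hk1-220 held 0.553% ± 0.354. The gaps between successive shares were wider than their SDs, which do not cover the division of reads among overlapping models. By expected counts, Hk1-212, a short model of 896 bases, fell below Hk1-205, with 524 and 474 against 1117 and 1132 in replicates 1 and 2. The posterior SD of the count of Hk1-201 was 233 reads of 3058 in replicate 1 and 243 of 2796 in replicate 2.

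In the preparatory phase of glycolysis, Gpi1, which converts glucose-6-phosphate to fructose-6-phosphate, had 186 TPM in replicate 1 and 173 in replicate 2. Phosphofructokinase, the committed step, was led by the liver-type subunit. Pfkl had 131 TPM in replicate 1 and 127 in replicate 2, the muscle-type Pfkm 25.4 and 24.1 TPM, and the platelet-type Pfkp 14.5 and 12.1 TPM. Pfkl held 77.3% ± 0.849, Pfkm 14.8% ± 0.0955 and Pfkp 7.92% ± 0.753 of the step (SD, n = 2) in the same order in both libraries. Exons of Pfkp share 748 bases with Pitrm1 on the opposite strand, which was at 111 and 110.02 TPM in replicates 1 and 2. Since the use of strand in the counting is not given, reads there cannot be told apart by strand.

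Aldolase cleaves fructose-1,6-bisphosphate to 2 triose phosphates. Aldoa, the muscle, red cell and embryonic form, had 492 TPM in replicate 1 and 451 in replicate 2. Aldoc, the brain form, had 4.27 TPM in replicate 1 and 3.90 in replicate 2. Aldoa, with both of its entries added, held 99.1% ± 0.00351 of the summed TPM of Aldoa and Aldoc (SD, n = 2), the aldolase genes analysed here. Tpi1, which interconverts the trioses, had 566 TPM in replicate 1 and 526 in replicate 2, 3.04 ± 0.00459 times the level of Gpi1. On protein-coding transcripts alone that fold was 4.45 ± 0.149 (SD, n = 2).

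**Figure D3:**
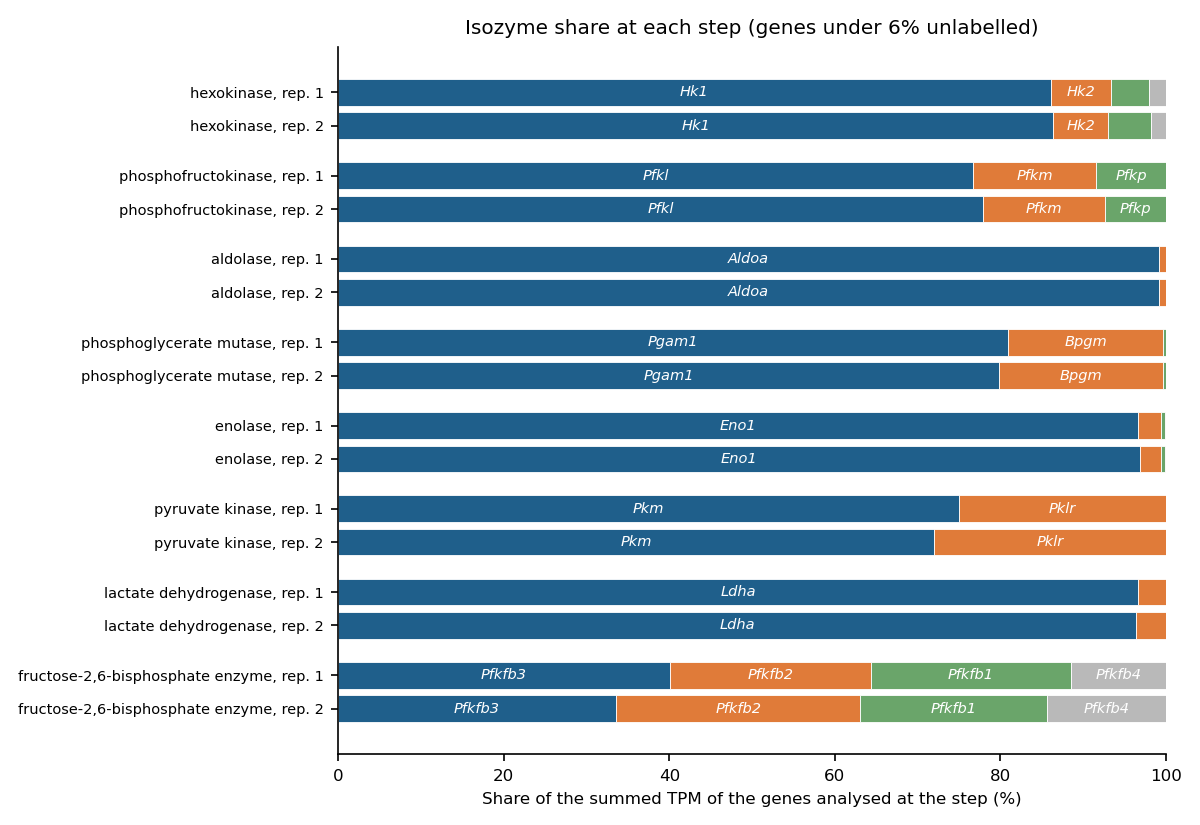
Share of each gene in the summed TPM of the genes analysed at its step (percent, 0 to 100), for 8 of the 12 steps with more than 1 gene analysed, replicate 1 above replicate 2. A single gene holds 72.0% or more in 7 steps in both libraries, and the fructose-2,6-bisphosphate enzymes are split among 4 genes, with Pfkfb3 at 40.1% in replicate 1 and 33.5% in replicate 2.

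In the energy-yielding phase, Gapdh and Eno1 had the highest levels over all of their transcripts. Gapdh (chr6:125161715-125166467, minus strand), which oxidises glyceraldehyde-3-phosphate, had 1321 TPM in replicate 1 and 1253 in replicate 2, and ranked 42 among protein-coding genes. Pgk1, which makes the first ATP of the pathway, had 243 TPM in replicate 1 and 226 in replicate 2. Gapdh thus exceeded the enzyme of the next step by 5.48 ± 0.0705-fold (SD, n = 2). On protein-coding transcripts alone the fold was 2.08 ± 0.0167. On that scale Gapdh had 501 and 472 TPM in replicates 1 and 2, below Tpi1 with 552 and 512 TPM. Of their testis forms, Gapdhs was at 0.05 and 0.06 TPM in replicates 1 and 2, and Pgk2 had 0 counts in both, which leaves room for at most 3.

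Pgam1, the main phosphoglycerate mutase, had 316 TPM in replicate 1 and 297 in replicate 2. Bpgm, which makes the 2,3-bisphosphoglycerate that lowers the oxygen affinity of adult haemoglobin in red cells, had 73.0 TPM in replicate 1 and 73.7 in replicate 2. Pgam2, the muscle form, had 34 counts in replicate 1 and 32 in replicate 2, which is 1.40 and 1.43 TPM, with exact 95% Poisson intervals of 0.970 to 1.96 and 0.978 to 2.02 TPM. Bpgm thus held 19.3% ± 0.806 of the summed level of the 3 genes and Pgam2 0.371% ± 0.0185 (SD, n = 2). Pgam1 exceeded Bpgm by 4.18 ± 0.218-fold.

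Enolase was almost all Eno1, the form of most tissues. Eno1 (chr4:150236721-150248879, plus strand) had 1125 TPM in replicate 1 and 1037 in replicate 2. Eno3, the muscle form, had 6.41 TPM in replicate 1 and 5.60 in replicate 2. Eno2, the neuronal form, was the single gene of the 34 under 1 TPM, with 39 and 32 counts or 0.65 and 0.86 TPM in replicates 1 and 2. Eno1 exceeded Eno3 by 180.4 ± 6.84-fold (SD, n = 2). Skeletal muscle markers summed to 35.2 TPM in replicate 1 and 45.7 in replicate 2, with 4 of 6 at 1 TPM or more and Ckm at 0.13 and 0.17 TPM. Most of that sum was Mylpf, with 31.5 and 34.6 TPM. Neural markers summed to 9.71 and 8.46 TPM, with 2 of 5 at 1 TPM or more and Elavl3 at 0.02 and 0.01 TPM. The part of muscle or neural cells in the low levels of Pgam2, Eno3, Eno2 and Aldoc was not tested.

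Lactate dehydrogenase, which returns NAD+ to glycolysis, was the step with the highest summed level, 1505 ± 67.4 TPM (SD, n = 2). Ldha (chr7:46841475-46855627, plus strand), the muscle-type subunit, had 1501 TPM in replicate 1 and 1404 in replicate 2 and ranked 34 among protein-coding genes. Ldhb, the heart-type subunit, had 51.7 TPM in replicate 1 and 52.9 in replicate 2. Ldha exceeded Ldhb by 27.8 ± 1.75-fold and held 96.5% ± 0.215 of the step. The testis gene Ldhc was at 0.13 and 0.18 TPM, and Ldhal6b at 0 counts in both libraries.

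The 4 bifunctional enzymes that set fructose-2,6-bisphosphate, the activator of phosphofructokinase, were all under 10 TPM. Pfkfb3, the inducible form with high kinase activity, had 9.84 TPM in replicate 1 and 8.58 in replicate 2. Pfkfb2, the heart form, had 5.96 and 7.56 TPM, and Pfkfb1, the liver and muscle form, had 5.93 and 5.75 TPM. Pfkfb4, the testis form, had 2.82 TPM in replicate 1 and 3.69 in replicate 2. By TPM over all transcripts, Pfkfb3 was highest and Pfkfb4 lowest in both libraries. Pfkfb2 (6.76 ± 1.13 TPM) and Pfkfb1 (5.84 ± 0.127 TPM) differed by less than the SD of Pfkfb2 (n = 2). On protein-coding transcripts alone, Pfkfb1, with 4.09 and 4.16 TPM in replicates 1 and 2, was above Pfkfb2, with 2.59 and 2.82 TPM. By expected counts, Pfkfb4, with 250 and 275, was above Pfkfb1, with 238 and 209. Exons of Pfkfb2 share 154 bases with Yod1 on the opposite strand (41.7 and 41.2 TPM), and those of Pfkfb1 share 123 bases with Apex2 (12.1 and 11.1 TPM).

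In the oxidative arm of the pentose phosphate pathway, the middle of 3 enzymes had the highest level. G6pdx, the first and rate-limiting enzyme, had 50.7 TPM in replicate 1 and 47.2 in replicate 2. Pgls, the lactonase that follows, had 121 and 115 TPM, and Pgd, which makes the second NADPH, had 76.6 and 74.0 TPM. Pgls therefore exceeded both of its neighbours in both libraries. H6pd, the dehydrogenase of the endoplasmic reticulum, added 7.58 and 7.36 TPM, 13.2% ± 0.329 of the first step (SD, n = 2). Exons of G6pdx share 418 bases with Ikbkg on the opposite strand, which was at 18.1 and 18.7 TPM.

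In the non-oxidative arm, the reversible sugar exchanges stood far above the isomerase. Taldo1, transaldolase, had 440.5 TPM in replicate 1 and 431 in replicate 2, and Tkt, transketolase, had 235 and 223 TPM. Rpe, the epimerase of ribulose-5-phosphate, had 31.9 TPM in replicate 1 and 32.8 in replicate 2. Rpia, which makes ribose-5-phosphate, had 3.77 TPM in replicate 1 and 4.27 in replicate 2, on 274 and 273 counts. Taldo1 exceeded Rpia by 109 ± 11.2-fold and G6pdx by 8.91 ± 0.305-fold (SD, n = 2). On protein-coding transcripts alone, Taldo1 had 361 and 348 TPM in replicates 1 and 2, and Tkt 45.1 and 43.4 TPM. On that scale Tkt lay closer to Rpe, with 30.7 and 31.2 TPM, and Rpia had 2.58 and 2.68 TPM. The transketolase-like genes Tktl1 and Tktl2 held 1 count between them over both libraries.

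Genes that feed or regulate these steps were also read from a list of 26, chosen with earlier results of these data known: glucose and lactate carriers, gluconeogenic enzymes, pyruvate dehydrogenase kinases, sugar phosphate enzymes and transcription factors. Of the 26, 22 reached 1 TPM, 16 reached 10 TPM and 3 reached 100 TPM. The highest 4 were Slc2a1, the glucose carrier of red cells and embryonic tissue, with 259 and 259 TPM, the lactate exporter Slc16a3 with 143 and 139 TPM, the transcription factor Myc with 119 and 113 TPM, and the lactate carrier Slc16a1 with 80.2 and 81.0 TPM in replicates 1 and 2. The 4 under 1 TPM were all gluconeogenic. G6pc, glucose-6-phosphatase of adult liver, had 0 counts in both libraries, which leaves room for at most 3 in each. Fbp1 had 1 and 2 counts, Fbp2 had 0 and 2, and Pck1 had 5 and 13 in replicates 1 and 2. Other genes of glucose release were detected. Pck2, the mitochondrial form of the carboxykinase, had 29.8 and 31.3 TPM, the widely expressed phosphatase G6pc3 had 16.5 and 15.1 TPM, and Slc2a2, the glucose carrier of liver, had 14.9 and 16.3 TPM in replicates 1 and 2. The levels of these pathway genes are over all of their transcripts. On protein-coding transcripts alone, Slc2a2 had only 2.61 and 2.74 TPM in replicates 1 and 2. On that scale Pck2 had 21.07 and 23.25 TPM, G6pc3 15.15 and 13.69 TPM, and Slc2a1 147 and 151 TPM.

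The promoters of the 34 genes were also searched as RefSeq windows on both strands, 53 windows in all, each from 250 bases before to 50 after a start. ACGTG was in 18 of the 53 windows, 33.96%, beside 19.6% of all windows, and these belonged to 14 of the 34 genes. CCNCNCCC was in 75.5% of them, beside 49.5% of all windows. GATAA was in 24.5% beside 25.4%, CACGTG in 7.55% beside 7.15%, and GTTAAT in 3.77% beside 7.10%. A match is a string of letters and not evidence of binding, and sites that vary from the string are missed. The base composition of the windows was not taken into account.

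Several of the 34 gene levels include transcripts that are not annotated as protein-coding. Protein-coding models held less than 50% of the TPM in 5 of the 34 genes, less than 75% in 11 and less than 90% in 14. For Gapdh, protein-coding models held 37.8% ± 0.180 of the TPM but 66.7% ± 0.278 of the expected counts (SD, n = 2). The rest was mostly Gapdh-208, a processed transcript of 483 bases with 805 TPM in replicate 1 and 766 in replicate 2, beside 470 and 418 TPM on the coding Gapdh-203. For Tkt, they held 19.3% ± 0.155 of TPM, and Tkt-209, a processed transcript of 1962 bases, had 156 and 155 TPM, against 45.1 and 43.4 TPM on all coding models together. For Hk2, they held 53.7% ± 1.40 of TPM and 92.7% ± 0.384 of counts. Short models weigh more in TPM than in counts, since TPM divides by length.

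**Figure D4:**
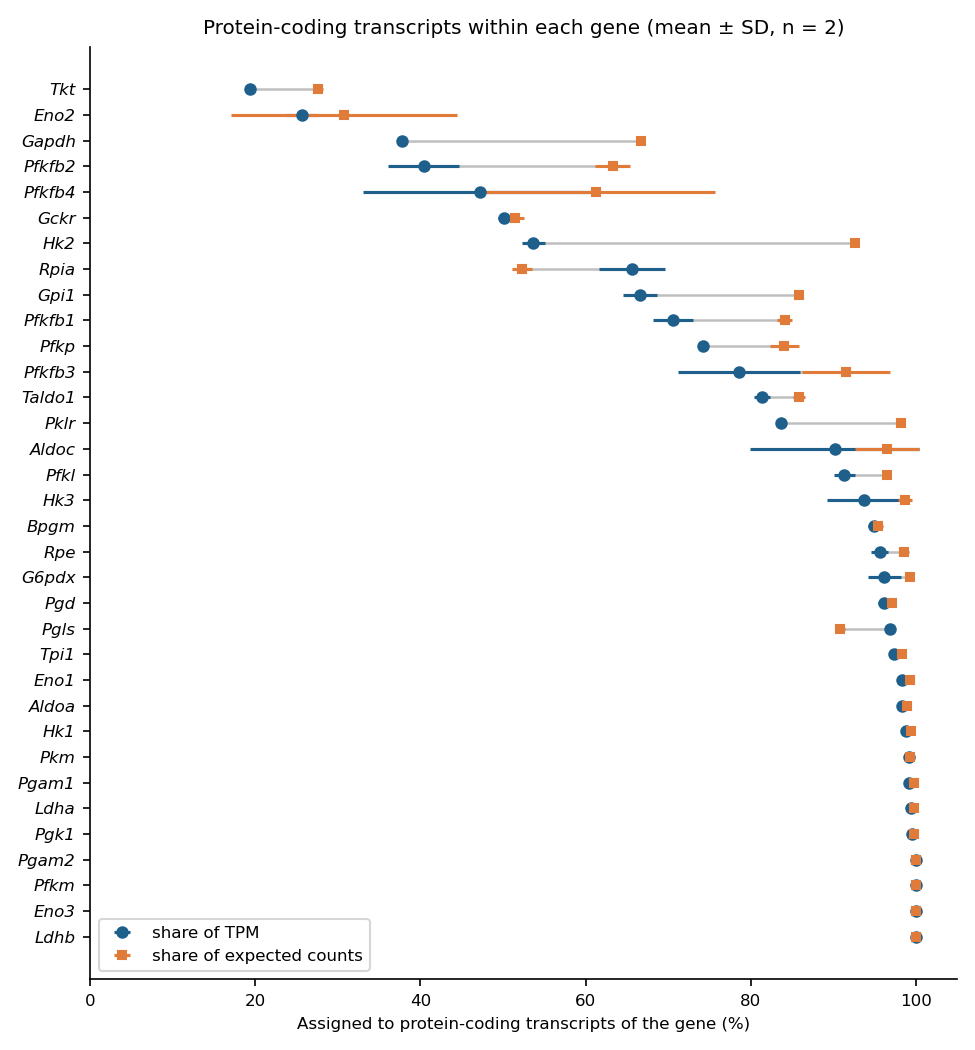
Share of TPM (circles) and of expected counts (squares) that the deposited tables assign to protein-coding transcripts of each gene (percent, mean ± SD of the 2 libraries), ordered by the share of TPM. Tkt, Eno2, Gapdh, Pfkfb2 and Pfkfb4 lie under 50% of TPM, and the share of counts is above the share of TPM for most genes.

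Near-identical copies bear on a few members. At 90% identity or more over at least 200 coding bases, 12 of the 34 genes had copies elsewhere in the annotation, 227 in all, of which 179 matched Gapdh. Reads shared with such copies are divided by the quantification, so those levels are uncertain. The copies of Gapdh held 72.0 TPM as the mean of both libraries, 5.30% ± 0.160 of the total with Gapdh. Those of Pgk1 held 4.79% ± 0.172, those of Eno1 3.26% ± 0.0442 and those of Pgam1 2.21% ± 0.527 of the total with their parent (SD, n = 2). Most of the Eno1 amount was on Eno1b, with 31.8 TPM in replicate 1 and 27.1 in replicate 2 on M21, but 7.16 and 7.19 TPM on the older M4 annotation, whose coding sequence is 99.4% identical to that of Eno1. For the other 8 genes with copies, these held under 0.5% of the total. Exons overlapping a low gene on either strand were also present: Pklr shares 711 bases with Hcn3 (0.68 and 0.72 TPM in replicates 1 and 2), Pgls 776 with Fam129c (1.09 and 1.96 TPM), Pkm 767 with Gm49759 (1.68 and 1.80 TPM), Gpi1 741 with Gm26762 (0.84 and 0.92 TPM) and Rpe 558 with Kansl1l (3.79 and 3.62 TPM).

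Members were then compared between the libraries, replicate 1 over replicate 2, on expected counts scaled by TMM. This sets 1 pool against the other, so it gives no test of a condition, and no p-value is given: with 2 libraries the smallest exact sign-flip p is 0.5. None of the 34 genes passed a 2-fold difference with an exact 95% binomial interval that excluded equal levels, a rule met by 2.35% of the 17343 genes compared. The log2 ratios ran from -0.30 for Pfkfb2 to 0.23 for Hk3.

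Within that narrow range, the ratio leaned to replicate 1 for most glycolytic enzymes. The interval excluded equal levels with replicate 1 higher for 11 genes, against a background of 10.8% of all genes compared: Gpi1, Pfkp, Aldoa, Tpi1, Gapdh, Pgk1, Pgam1, Eno1, Pkm, Ldha and G6pdx. Of these, Pfkp had a log2 ratio of 0.22, Pkm 0.15, Aldoa 0.12, and the other 8 between 0.08 and 0.12. The interval excluded equal levels with replicate 1 lower for 3 of the 34 genes, no larger a share than the 11.8% of all genes compared. These were Pfkfb2 at -0.30, Pfkfb4 at -0.25 and Pklr at -0.08, the last of which was above 0 when scaled by spike-ins. Of the 8 red cell markers, by the same rule, 4 were lower in replicate 1, Klf1 was higher and 3 had intervals that included equal levels, and their sums were 3009 and 3099 TPM. Of the 9 hepatoblast markers, 6 lay above 0 and 3 below (sums of 13839 and 13475 TPM in replicates 1 and 2). Their intervals excluded equal levels for 4 as higher in replicate 1 and for 1 as lower. Other cell types differed between the pools too. The 4 mesenchyme markers all lay below 0, 2 of them with intervals that excluded equal levels (352 and 374 TPM). Macrophage and endothelial markers lay on both sides of 0. All 4 megakaryocyte markers lay above 0, 3 of them with intervals that excluded equal levels (sums of 981 and 863 TPM in replicates 1 and 2), and all 6 granulocyte markers lay below 0, 5 of them so (533 and 611 TPM). All 5 skeletal muscle markers compared lay below 0, 4 of them so (35.2 and 45.7 TPM over all 6). Those 4, Acta1, Myog, Myod1 and Tnnc2, were also past 2-fold. The interval of Mylpf, which made up most of the sum, included equal levels. The part of these cell types in the lean of the 34 genes, and that of red cells in Pklr, was not tested. The median over the 34 genes was 0.07, beside -9e-05 over all genes compared, and 27 were above 0 and 7 below.

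These intervals cover counting error only. Genes with many counts, such as Ldha with 72419 and 62753, have narrow ones, which exclude equal levels at small differences. Scaling by the spike-ins instead moved the median of all genes to 0.12. On that scale the median of the 34 genes was 0.19, with 32 above 0 and 2 below, and the interval excluded equal levels for 27 genes as higher in replicate 1 and for 0 as lower. The 2 below 0 were Pfkfb2 and Pfkfb4. With DESeq2 size factors the interval excluded equal levels for 13 genes as higher, with Taldo1 and Tkt added at 0.04 each, and for 2 as lower, since that of Pfkfb4 then included them. The number past 2-fold was 0 with TMM, DESeq2 size factors, total counts and spike-ins alike.

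**Figure D5:**
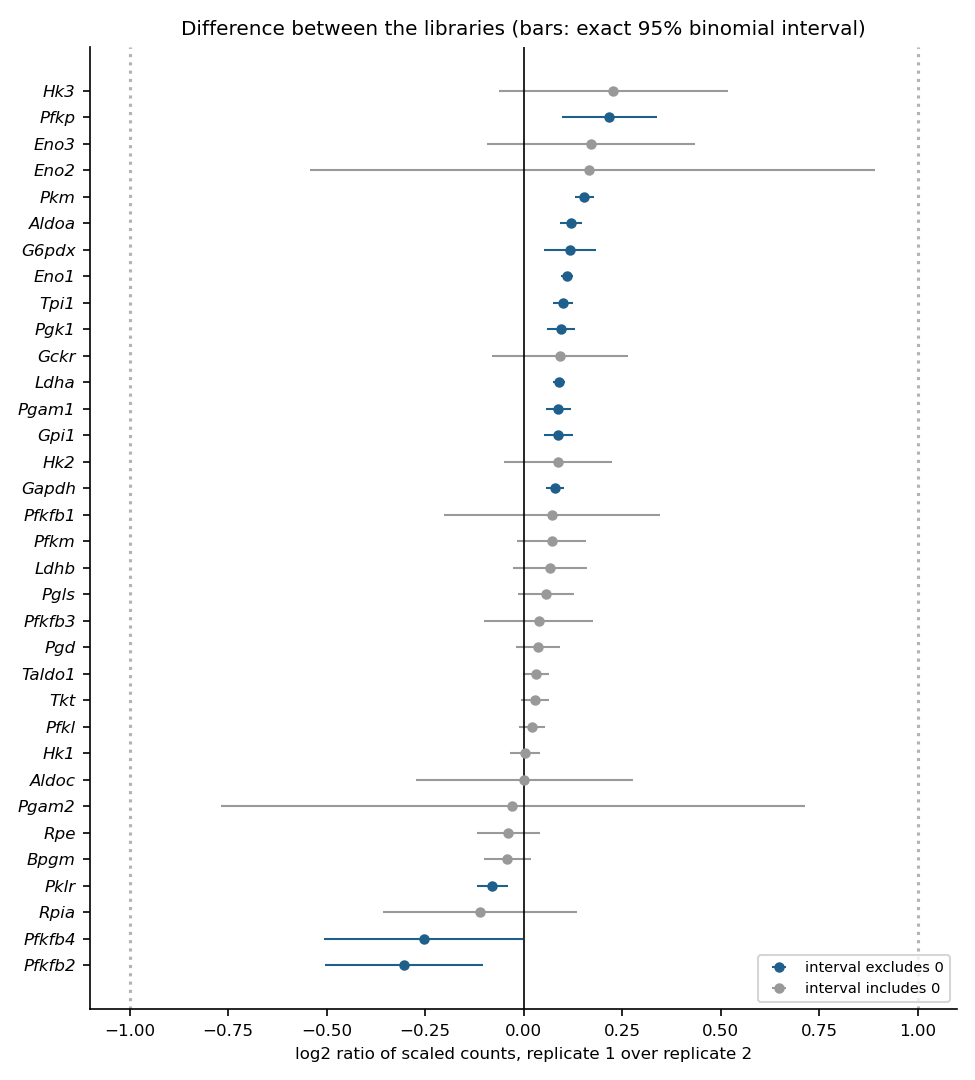
Log2 ratio of TMM-scaled expected counts, replicate 1 over replicate 2, for the 34 genes, with exact 95% binomial intervals as bars and dotted lines at 2-fold either way. All points lie between -0.30 and 0.23; blue intervals exclude 0, 11 on the higher side and 3 on the lower side, of which Pklr lies above 0 with spike-in scaling; with DESeq2 size factors the numbers are 13 and 2.

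The same reads had also been quantified on the older GENCODE M4 annotation. Of the 33 genes at 1 TPM or more in either annotation, 1 differed by over 1.5-fold in both libraries, M21 over M4, a rule met by 5.51% of the genes compared. That gene was Tkt, with 235 and 223 TPM on M21 against 147 and 144 TPM on M4 in replicates 1 and 2. Its expected counts hardly differed, at 14292 and 12927 on M21 against 14253 and 12887 on M4, while its effective length was 1864 and 1913 bases on M21 against 3078 and 3068 on M4. Gckr, short of that threshold, had log2 ratios of 0.41 and 0.41, with 602 and 521 counts on M21 against 411 and 347 on M4. The median log2 ratio over these genes was -0.04 in both libraries, as over all genes compared.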

How the data were processed

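Expected counts, as deposited by the authors, divide reads among genes or transcripts and need not be whole. TPM values, as deposited by the authors, were made per effective length, per the file headers, and their total includes the spike-ins. The posterior SD of a count, the posterior mean TPM and the credibility bounds are scores of the authors' quantification, per the file headers, and the bounds were not used. The deposited notes name the mm10 assembly and GENCODE M21 or M4 for each table. Which aligner, quantifier and strand setting were used is not given in the sources used here. M21 was used unless M4 is named. Each library's table held 81881 entries, of which 26248 have a bare number for a name and hold 0.000139% and 0.000124% of counts in replicates 1 and 2. These and the spike-ins were left out of gene comparisons.

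Shares, folds and means were computed per library from TPM and are given with the SD over 2 libraries, which are separate pools of embryos. For the difference between libraries, expected counts of the 17343 genes with a mean of at least 10 were scaled by TMM (edgeR 4.0.16, R 4.3.3). The ratio was given with an exact 95% binomial interval of the split, and a gene was called past 2-fold where that interval excluded equal levels. Intervals and the floor of 3 counts cover counting error only, since reads were not collapsed by molecule. The call was run on counts simulated for this comparison over 17382 genes, where 200 of 200 genes changed 4-fold were called, along with 77 unchanged genes. The changed genes were drawn only from genes well above the filter of 10 counts, and the noise was Poisson only. High recovery was thus built in, and it does not show how the call performs on weaker genes or between pools. Annotations were compared as log2 of TPM + 1, past 1.5-fold in both libraries. Pklr transcripts were grouped by first base within 50 bases and Pkm transcripts by the alternative exon. Copies were found with blastn 2.17.0. The alternatives tried were DESeq2 1.42.0 size factors, total counts and spike-ins for scaling, no filter on counts, counts or posterior mean TPM in place of TPM, M4, coding transcripts alone, copies added, and each library alone.

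All 34 genes are named, with other isozymes of each step and the 4 highest of the list of 26 pathway genes. The 4 lowest of that list the copies that are named, and Pck2, G6pc3 and Slc2a2 were chosen after their values were seen. Some genes of these steps are not reported here, and shares are over the genes analysed. The genes and lists were chosen with earlier results of these data known.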

Additional observations from a re-analysis of the deposited data

How the results depend on the processing

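Of the 12 steps with more than 1 gene analysed, 8 were recomputed, and in those 8 the leading gene was the same under the 7 alternatives tried. With expected counts in place of TPM, the shares were 86.7% for Hk1, 81.1% for Pfkl, 98.9% for Aldoa, 77.9% for Pgam1, 97.2% for Eno1, 97.3% for Ldha, 48.6% for Pfkfb3, 67.0% for the upstream Pklr start and 96.7% for the downstream Pkm exon. With posterior mean TPM, they were 85.8% for Hk1, 99.0% for Aldoa and 96.6% for Eno1, and the median of the 34 genes was 62.1 TPM. With the M4 annotation, they were 76.2% for Pfkl, 98.8% for Eno1, 96.7% for Ldha and 96.5% for the Pkm exon. Over the 34 genes alone, without the other isozymes, they were 90.6% for Hk1 and 99.4% for Eno1. With TPM rescaled without spike-ins and other entries, the median was 66.3 TPM. Added after the data were seen, coding transcripts alone gave 89.6% for Hk1, 99.2% for Aldoa, 76.7% for Pkm and 46.4% for Pfkfb3, near-identical copies gave 99.4% for Eno1, and the full-length pair gave 67.5% for the upstream Pklr start. The causes of these shifts were not tested, apart from length, by which counts and TPM differ by construction. Beside each library alone, 56 further values stayed within 1 SD of the mean of both libraries or, for counts of genes, within 1.5 times. Among the folds that are printed, coding transcripts alone moved Gapdh over Pgk1 and Hk1 over Hk2 by over 1.5 times.

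With each library left out in turn, which with 2 libraries cannot move a value past 1 SD, the shares ran from 86.1% to 86.4% for Hk1, 76.7% to 77.9% for Pfkl, 99.14% to 99.15% for Aldoa, 79.8% to 81.0% for Pgam1, 96.7% to 96.9% for Eno1, 72.0% to 75.1% for Pkm, 96.4% to 96.7% for Ldha, 33.5% to 40.1% for Pfkfb3, 70.3% to 72.1% for the Pklr start and 95.9% to 96.0% for the Pkm exon, and the median from 62.4 to 63.3 TPM. No paired analysis was possible because there is a single group. Depth limits Pgam2 and Eno2, each under 40 counts a library, and the SD rests on 2 pools.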
